A study of Brassica rapa with 38 samples.

Results

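Chromosome A09 of Brassica rapa was examined as a block of genes whose transcript levels stood higher in a single autotetraploid library than in any other. A gene model was a member when the deposited tables placed it on A09, when its TPM (a read density scaled for transcript length and for the sum over all genes of a library) was at least 1 in all 8 libraries, and when its mean TPM was at most 500. Of the 6757 models on A09, 3126 (46.3%) were members, out of 21630 models that met the same limits on all 10 chromosomes. The members were chosen by measured TPM, and the chromosome and the library were selected on the same difference that is described here, so that difference is given as a description and carries no test.

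RNA was sequenced from young inner leaves of plants at the start of heading, 60 days after sowing, with 3 monoploid (M1 to M3), 2 diploid (D1 and D2) and 3 autotetraploid (T1 to T3) libraries. All plants went back to the inbred line 85-1: the monoploid was regenerated from isolated microspores, the diploid was a colchicine-doubled monoploid, and the autotetraploid came from a further colchicine treatment, with propagation in tissue culture. All groups therefore shared 1 genotype, and each ploidy level came through its own culture and doubling history. The labels did not say how many plants made up an RNA library or whether the replicates were separate regenerated plants, so the p-values below measure only the spread between these libraries.

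An autotetraploid carries 4 homologous copies of every chromosome, and the 4 homologues can pair as multivalents at meiosis, so that colchicine-derived polyploids are known for gaining or losing single chromosomes. An extra chromosome raises the template of every gene it carries. The transcript level of such a gene can follow the copy number, which is called a dosage effect, can stay where it was, which is called dosage compensation, or can move by more than the copy number. A gained copy beside 4 gives a ratio of 1.25, or 0.322 on the log2 scale, for a gene that follows dosage exactly. DNA copy number was not measured in the data used here, and the ratio of 5 to 4 copies served only as a yardstick.

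Of the 10 chromosomes, 3 stood apart in single autotetraploid libraries and were kept out of the reference: A09 in T1, A02 in T1 and T3, and A04 in T2. Each gene was expressed relative to its own mean log2 TPM in T2, T3, D1 and D2, and relative to the median of the genes on A01, A03, A05, A06, A07, A08 and A10 in the same library (15089 genes within the same limits). On this scale the median A09 member was at 0.32 in T1. In the other 7 libraries the A09 median lay between −0.0078 and 0.0097. None of the 7 reference chromosomes left the range from −0.032 to 0.024 in any library. The aligned sequence behind a library came to between 5.86 and 8.06 Gb, and T1 at 6.95 Gb was neither the deepest nor the shallowest.

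**Figure D1:**
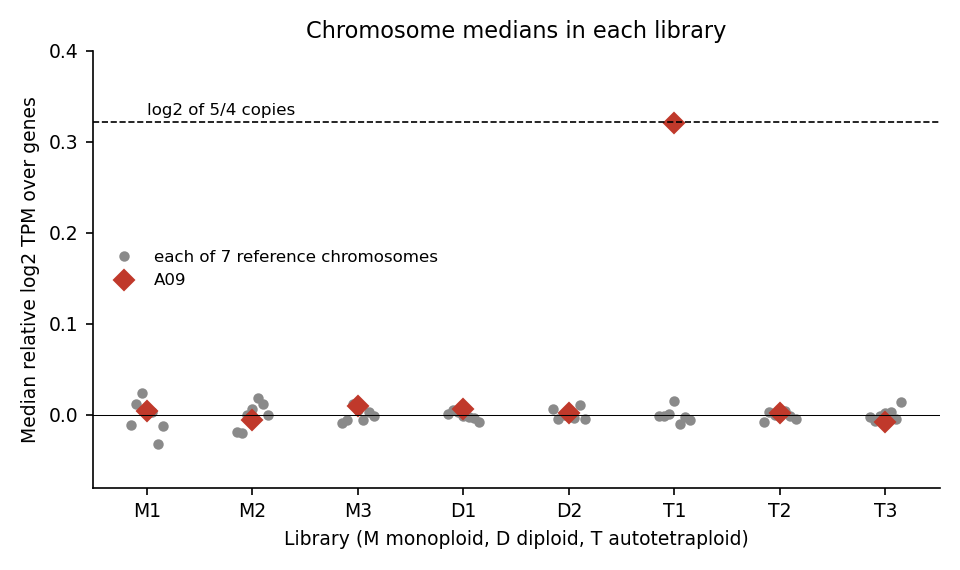
Median relative log2 TPM of the genes on A09 (red diamonds) and on each of the 7 reference chromosomes (grey circles), on the y axis, in each of the 8 libraries, on the x axis. A09 sits at 0.32 in T1, on the dashed line for 5 against 4 copies, and close to 0 in the other 7 libraries.

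The difference of a gene in T1 was defined as its relative log2 TPM in T1 minus its mean over T2, T3, D1 and D2. Over the 3126 members its median was 0.322, a ratio of 1.25, with an interquartile range of 0.287. The medians of the 7 reference chromosomes ran from −0.0085 to 0.016, and their interquartile ranges ran from 0.281 to 0.307. The A09 distribution was therefore displaced as a whole, and it was no wider than the distributions of chromosomes that had not moved. On TPM as deposited the A09 median was lower, at 0.264, with the median gene of the reference chromosomes 0.056 log2 units lower in T1. The same displacement appeared in the sums, since the TPM of all members together was 0.239 of the reference total in T1 and between 0.183 and 0.193 of it in the other 7 libraries. In bulk leaf RNA, fewer cells of a type and less RNA per cell cannot be told apart.

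Members were sorted by their difference into 3 bands around the yardstick. A difference from 0.161 to 0.483 was called near the ratio of 5 to 4 copies, a lower one compensated, and a higher one beyond it. On A09, 1710 members (54.7%) were near the ratio, where 18.7% of the genes on the reference chromosomes lay in the same range. Another 739 members (23.6%) were compensated, and 77.2% of reference genes fell below the same limit. The remaining 677 members (21.7%) were beyond the ratio, against 4.15% of reference genes. The band around 0 of the same width held 53.5% of the reference genes, with 23.7% below it and 22.8% above it. The 3 shares on A09 thus repeated, around 0.322, the shares that reference genes showed around 0, and the bands alone do not tell a gene with its own response from one displaced by the spread between libraries.

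**Figure D2:**
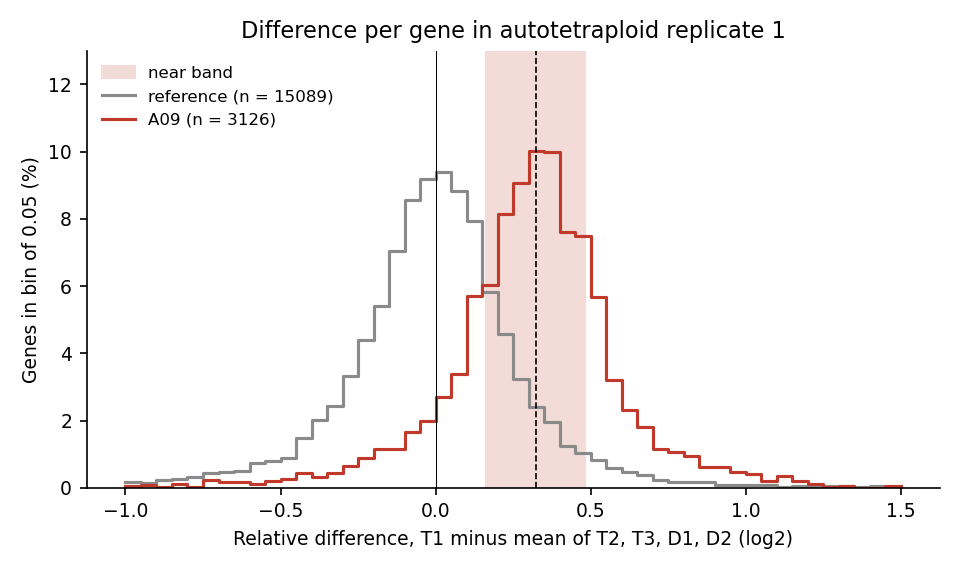
Share of genes (y axis, percent per bin of 0.05) by their difference in T1 (x axis, log2), for the 3126 A09 members (red) and the 15089 genes of the reference chromosomes (grey); the shaded span is the band near 5 against 4 copies and the dashed line its centre. The red outline has the shape of the grey one, shifted from 0 to 0.322; 13 A09 members and 169 reference genes lie off the axis.

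Members with reproducible levels fell closer to the yardstick. Among the 665 members whose relative values had a standard deviation of at most 0.1 over the 4 comparison libraries, 68.9% were near the ratio, 18.3% compensated and 12.8% beyond it. Of the 3277 reference genes with the same steadiness, 67.7% lay within 0.161 of 0. Among the 133 members with a standard deviation of at most 0.05, the share near the ratio was 72.9%, with 15.8% compensated and 11.3% beyond it. The 638 reference genes as steady as these had 71.2% within 0.161 of 0. T1 had the highest relative value among the 5 libraries compared for 2171 members (69.4%), against 20.2% of reference genes. It had the lowest for 95 members (3.04%), against 21.2% of reference genes. In all, 328 members (10.5%) had a difference below 0, compared with 49.8% of reference genes.

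The monoploid libraries, which took no part in the difference, also separated the bands. The median standard deviation of log2 TPM over M1, M2 and M3 was 0.186 for members near the ratio, 0.243 for compensated members and 0.228 for members beyond it. Members beyond the ratio were the weakest expressed, with a median monoploid TPM of 7.88 against 13.5 for members near the ratio and 12.2 for compensated members. They also spanned less genome, with a median span of 1703 bp, close to the 1701 bp of compensated members, against 1949 bp near the ratio. On the reference chromosomes, where the same limits bound other parts of the distribution, genes beyond the upper limit likewise had a low median monoploid TPM of 6.54 and a median span of 1429 bp. Their median standard deviation over M1, M2 and M3 was 0.315, against 0.211 for reference genes between the limits and 0.205 for those below. Strand made no visible difference, as the median was 0.323 for the 1602 members on the plus strand and 0.319 for the 1524 on the minus strand. Only 15 members overlapped another gene model.

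Expression level shifted A09 and the reference together. Members with a mean monoploid TPM under 5 had a median difference of 0.372 (n = 646), those between 5 and 10 had 0.340 (n = 737), those between 50 and 100 had 0.284 (n = 225), and those above 100 had 0.321 (n = 172). Reference genes of the same levels had 0.057, 0.016, −0.037 and −0.0049, so both sets were lowest between 50 and 100 TPM and higher again above it. In all 6 classes of level the gap stayed between 0.313 and 0.327. The share of members near the ratio rose from 41.2% under 5 TPM to 63.4% above 100 TPM, while the share beyond it went from 33.9% to 14.0%. Reference genes changed in the same direction: the band around 0 of the same width held 40.8% of them under 5 TPM and 57.8% above 100 TPM. The rise with level was therefore not particular to A09. The interquartile range of members was 0.383 in the lowest class and 0.234 in the highest, against 0.395 and 0.273 for the reference genes.

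**Figure D3:**
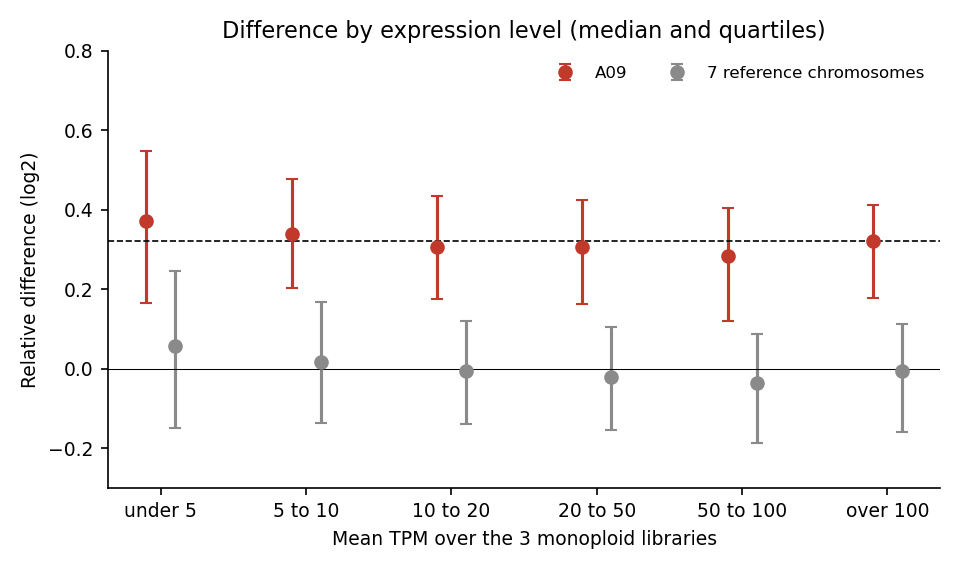
Median difference in T1 (y axis, log2), with bars from the lower to the upper quartile, for A09 members (red) and reference genes (grey) in 6 classes of mean monoploid TPM (x axis). The red and grey medians run in parallel, 0.313 to 0.327 apart.

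By gene span, members under 1000 bp had a median difference of 0.301 and an interquartile range of 0.356, and those over 5000 bp had 0.319 and 0.191. The medians of reference genes in the 5 classes of span lay between −0.0028 and 0.0094, and the gap to A09 between 0.303 and 0.335. By steadiness in the monoploid, the gap was 0.319 to 0.325 up to a standard deviation of 0.4. The 438 members whose monoploid standard deviation exceeded 0.4 had a lower median, 0.232, with 41.6% compensated and 26.3% beyond the ratio. The median of reference genes in that class was −0.041, which left a gap of 0.273. Both sets were wide there, with interquartile ranges of 0.526 for members and 0.479 for reference genes. Up to a standard deviation of 0.1 these ranges were 0.230 and 0.244. The band around 0 of the same width held 35.2% of reference genes above 0.4, against 60.6% up to 0.1. Whether the larger compensated share exceeds this spread was not tested.

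Models outside the limits were looked at separately. On A09, 1477 models were listed at 0 in all 8 libraries, 1390 at 0 in some, 715 above 0 but under 1 in at least 1 library, and 49 had a mean above 500. The 49 strongly expressed genes had a median difference of 0.282, and 36 of them exceeded 0.161, while the 169 such genes on the reference chromosomes had a median of 0.020. The lower limit fell between BRA09G0034237, whose lowest TPM was 1.002, and BRA09G0030962, whose lowest was 0.999. The first had a difference of −0.16 and the second of 0.62, each with a standard deviation above 0.3. The upper limit fell between BRA09G0034575, with a mean TPM of 495.7 and a difference of 0.25, and BRA09G0033419, with a mean TPM of 516.5 and a difference of 0.05.

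Along the chromosome the displacement ran from the first member, which started at 7490, to the last, which ended at 71391767 (coordinates as in the deposited tables, whose genome build is not given in the sources used here). Members were taken in order in 31 windows of 100, the last holding 126. Their medians lay between 0.240 and 0.383, with a standard deviation of 0.025 between windows. The reference windows ran from −0.061 to 0.094, apart from 1 window of A06 at 0.473. The highest A09 window spanned 2925293 to 4070883, where 28.0% of members were beyond the ratio and 21.0% compensated. No A09 window reached down to the range of the reference windows without A06.

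The lowest window lay in the gene-poor middle of A09, from 19749869 to 50835226, with a median of 0.240 and 38.0% of its members compensated. Between 25 and 45 Mb there were no members at all among the few models listed. Local gene density was then counted as the number of models within 1 Mb to either side, a measure chosen after the values had been seen, leaving out 179 members close to the chromosome ends. The 72 members with at most 200 neighbouring models had a median difference of 0.237, and 40.3% of them were compensated. Members with 200 to 300, 300 to 400 and 400 to 600 neighbouring models had medians of 0.319, 0.329 and 0.325, and compensated shares of 22.0%, 22.6% and 26.0%. The 31 gene-poor members before the gap had a median of 0.180 and the 41 after it a median of 0.253. Their interquartile ranges were 0.405 and 0.279. On the reference chromosomes without A06, the 517 genes in equally sparse surroundings had a median of −0.012. Of these, 81.4% fell below the limit for compensated, against 76.0% to 78.9% in the denser classes. With A06, the 737 sparse genes had a median of 0.014 and 71.9% below the limit, against 76.3% to 78.7% in the denser classes. The gene-poor members were expressed at a median monoploid TPM of 13.5, near that of all members (11.9), and no test of this contrast was made.

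**Figure D4:**
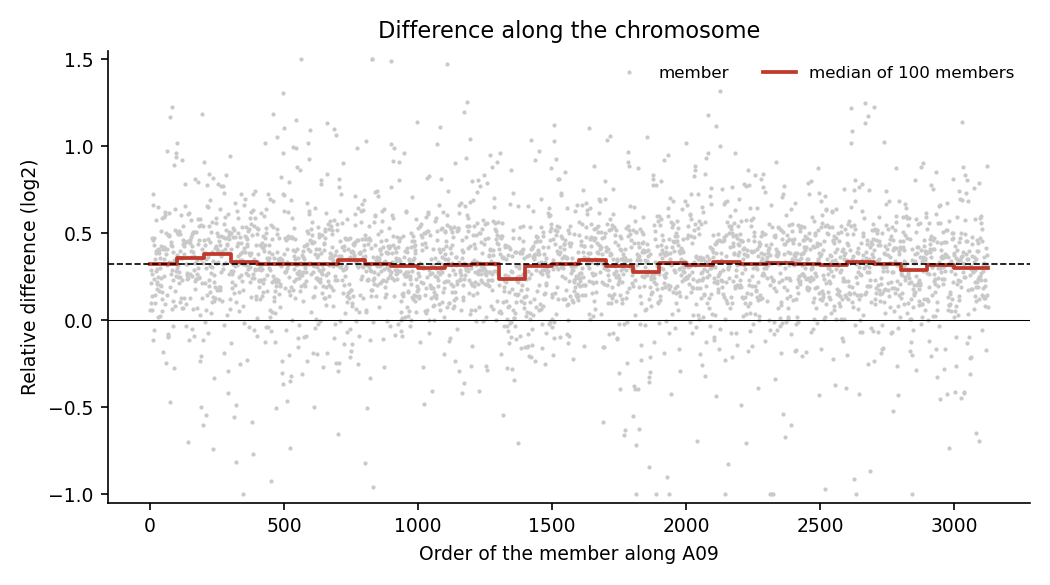
Difference in T1 (y axis, log2) of each of the 3126 members (grey points, values under −1 or over 1.5 drawn at the edge) in their order along A09 (x axis), with the median of each window of 100 members (red line) and the ratio of 5 to 4 copies (dashed). The red line stays between 0.240 and 0.383, with its lowest step in the gene-poor middle.

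Adjacent members resembled each other little. The correlation between the differences of adjacent members, a description over genes that share the same libraries, was 0.080, within the span of 0.000 to 0.134 found on the reference chromosomes. The longest run of compensated members counted 8, from BRA09G0032778 to BRA09G0032795 (12608693 to 12753616), with a median difference of 0.03. The longest run of members beyond the ratio counted 5, from BRA09G0031798 to BRA09G0031803 (5806110 to 5835383), with a median of 0.96. Both runs were picked after their values had been seen.

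Within the run of 5, the levels were far apart while T1 stood highest in each. BRA09G0031801 had a TPM of 92.7, 133 and 93.8 in M1 to M3, 59.2 and 93.5 in D1 and D2, 213 in T1, and 103 and 113 in T2 and T3. BRA09G0031798 had 50.1, 65.6 and 47.7 in the monoploid libraries, 73.7 and 96.0 in the diploid, 141 in T1, and 94.8 and 92.6 in T2 and T3. The weak BRA09G0031802 had 1.28 to 1.46 in the monoploid, 1.24 and 1.27 in the diploid, 2.65 in T1, and 1.04 and 1.65 in T2 and T3. For each of these genes T1 exceeded all 7 other libraries. Directly before the run, BRA09G0031797 (5803591 to 5805095) went the other way, with 5.40 in T1, 6.69 and 7.20 in T2 and T3, and 7.65 and 7.51 in D1 and D2. Directly after it, BRA09G0031804 had a difference of 0.38, inside the band near the ratio.

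The members that exceeded the ratio most were picked among those with a standard deviation of at most 0.15 over the comparison libraries and T1 outside their range. BRA09G0035684 (61850713 to 61852115, minus strand) had a TPM of 42.8 in T1, 19.5 and 23.0 in D1 and D2, and 18.5 and 21.6 in T2 and T3, a difference of 1.12. Its monoploid values were 46.1, 42.7 and 39.7, so on TPM as deposited T1 lay among them and apart from T2 and T3. On the relative scale T1, at 1.12, was below M1, M2 and M3, at 1.44, 1.18 and 1.29. BRA09G0034872 (57074173 to 57075738, plus strand) had 19.7 in T1 and between 7.47 and 11.9 in every other library, a difference of 1.06. BRA09G0031800 (5814231 to 5816507, plus strand), inside the run described above, had 35.4 in T1 and between 16.9 and 20.8 elsewhere. Both genes kept T1 well clear of all 7 other libraries. The remaining pair, BRA09G0032449 and BRA09G0033605, were weaker, with 7.32 and 5.10 TPM in T1 and differences of 1.03 and 0.95. The files do not pair any of these identifiers with a gene name, so no function is given.

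The smallest differences under the same conditions were negative. BRA09G0036642 (66702217 to 66704777, plus strand) had a TPM of 9.97 in T1 against 18.4 to 21.0 in the 4 comparison libraries, a difference of −0.91. Its monoploid values were 11.5, 21.9 and 13.1, all outside that range. BRA09G0036098 (63801826 to 63803169, plus strand) had 68.1 in T1, 87.1 and 85.2 in T2 and T3, 89.6 and 96.8 in D1 and D2, and 121 to 137 in the monoploid. Here T1 was below all 7 other libraries, with a difference of −0.34 and a standard deviation of 0.031 over the comparison libraries. The other 3 members of this kind, BRA09G0031279, BRA09G0031797 and BRA09G0033879, had differences from −0.54 to −0.34.

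Strongly expressed members with steady levels included some at the ratio of 5 to 4 copies and some at 0. BRA09G0032603 (11355191 to 11357443, plus strand) had a TPM of 246 in T1, 203 and 192 in T2 and T3, and 205 and 217 in D1 and D2, a difference of 0.33 with a standard deviation of 0.025. BRA09G0030902 (270614 to 271847, minus strand), the strongest of the kind, had 467 in T1 and 379 to 413 in the comparison libraries, a difference of 0.28. BRA09G0034533, BRA09G0035732 and BRA09G0030913 had differences of 0.29 to 0.30. All 5 had T1 above the 4 comparison libraries, while the monoploid values of several lay beyond that range.

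BRA09G0033665 (19605075 to 19606351, minus strand), the strongest member within 0.05 of 0, had a TPM of 116 in T1, 117 and 122 in T2 and T3, and 121 and 123 in D1 and D2. BRA09G0034988 (57732506 to 57737035, minus strand) had 59.0 in T1, 60.7 and 61.1 in T2 and T3, and 62.3 and 64.8 in D1 and D2, with a standard deviation of 0.024. BRA09G0033916, BRA09G0035966 and BRA09G0031577 had differences of 0.04, 0.02 and −0.02. On the relative scale T1 lay within the range of the comparison libraries in 4 of the 5, and in BRA09G0033916 it was the highest, at 0.0426 against 0.0395 in T3.

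**Figure D5:**
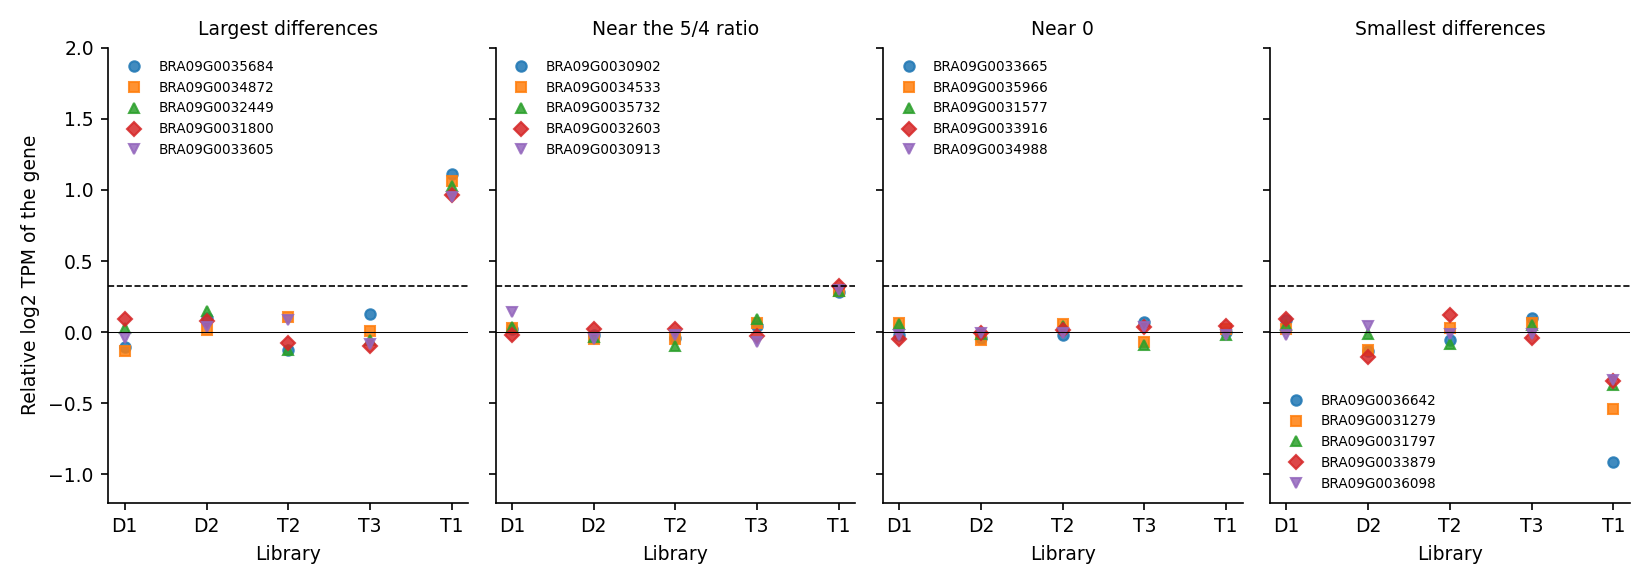
Relative log2 TPM (y axis) of 20 named members in D1, D2, T2, T3 and T1 (x axis), 1 marker per gene and library, in 4 panels of 5 genes; the dashed line is the ratio of 5 to 4 copies. Each gene is set to its mean over the comparison libraries, which therefore lie around 0 in every panel. The panels were picked by the difference in T1, which lies near 1 in the first, near 0.32 in the second, near 0 in the third and between −0.91 and −0.34 in the last.

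A02 offered a second chromosome with a raised level in T1. Against T2, D1 and D2, since T3 was raised too, the 1999 A02 genes within the limits had a median difference of 0.325, with 23.5% compensated, 51.4% near the ratio and 25.2% beyond it. A09 against the same 3 libraries had a median of 0.317, with 24.3%, 53.6% and 22.0%. The difference between the chromosomes was not tested.

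The displacement in T1, for which A09 was selected, also entered the comparisons of ploidy. Those with the autotetraploid reuse that library, so the medians here are a description and no separate support. The relative level of A09 in the autotetraploid against the diploid had a median of 0.108 with T1 and of −0.0034 without it, and against the monoploid 0.110 and −0.0060. The median standard deviation of a member over the autotetraploid libraries was 0.244 with T1 and 0.140 without it, against 0.168 and 0.137 for reference genes. The diploid against the monoploid, where no library was displaced, had a median of 0.014.

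Differential expression was tested with limma on log2(TPM + 1) over the 25652 genes that reached a TPM of 1 in 2 or more libraries, and a call required an adjusted p no higher than 0.05 together with a change of 1 log2 unit or more in either direction. In the diploid against the monoploid, 145 members were called higher and 96 lower. Over all genes tested 4.87% were called higher and 5.36% lower, which includes weak genes that the limits for members left out. The 586 other A09 models tested, outside those limits, had 59 called higher and 95 lower. Of the 15089 reference genes within those limits, 647 were higher and 536 lower, or 4.29% and 3.55%, against 4.64% and 3.07% of members. The split between directions rested on scaling, because the median of all genes stood 0.25 above 0: after median-ratio rescaling 65 members were higher and 153 lower, and after quantile normalization 80 and 134. Without diploid replicate 1 the calls fell from 241 to 130.

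In the autotetraploid against the monoploid, 174 members were called higher and 109 lower, where 5.56% and 6.01% of all genes were called. Among the reference genes within the limits 4.24% were higher and 4.34% lower, and among members 5.57% and 3.49%. Leaving out T1 gave 138 higher and 118 lower, and 230 genes were called both ways. Centring each chromosome in each library gave 137 and 131. Median-ratio rescaling gave 102 and 146 and quantile normalization 120 and 133, with the median of all genes at 0.19 as deposited. Members called higher thus outnumbered those called lower on values as deposited, with and without T1, and were outnumbered by them after both rescalings.

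In the autotetraploid against the diploid no member was called by limma, and over all genes 0.0195% were called higher and 0.0078% lower. At an unadjusted p of at most 0.05 there were 101 members (3.23%), against 5.41% of all genes tested, and the smallest adjusted p of any member was 0.101. Without diploid replicate 1, a single member was called. The reference genes within the limits had 0 calls as well, and a rise of 0.322 in 1 of 3 libraries lies far below the change that a call required.

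Members with the largest changes between diploid and monoploid are given with their difference in T1 and its standard deviation over the comparison libraries. Where that deviation exceeds the difference, the displacement cannot be read for the gene. BRA09G0037204 (69438441 to 69442427, plus strand) had a TPM of 4.44 to 4.47 in the monoploid, 34.9 and 33.8 in the diploid, and 43.1, 31.1 and 35.4 in T1, T2 and T3. Its log2 fold change was 2.70 ± 0.15 (SE) in the diploid against the monoploid, with an adjusted p of 8.1e-06 from limma. The 5 values of the higher ploidies stood far above the 3 of the monoploid. T1 was the highest of them, with a difference of 0.41 and a standard deviation of 0.099. BRA09G0031159 (1923736 to 1924600, plus strand) had 2.98, 1.16 and 1.60 in the monoploid, 69.8 and 29.9 in the diploid, and 63.7, 61.8 and 45.7 in the autotetraploid, with a log2 fold change of 4.05 ± 0.36 (limma adjusted p = 0.000138). T1 lay within the range of the diploid libraries there, with a difference of 0.43 and a standard deviation of 0.57.

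Among the falls, BRA09G0034002 (50178403 to 50180355, plus strand) had a TPM of 26.3, 24.2 and 31.7 in the monoploid, 2.96 and 3.29 in the diploid, and 1.06, 1.05 and 1.00 in T1, T2 and T3. Its log2 fold change in the diploid was −2.78 ± 0.16 (limma adjusted p = 8.1e-06), and the 3 autotetraploid libraries lay close together. Its difference in T1 was −0.70, with a standard deviation of 0.87 over the comparison libraries. BRA09G0036168 (64141651 to 64142043, plus strand) had 305, 281 and 322 in the monoploid but 24.8 and 73.0 in the diploid, and 24.0, 14.3 and 97.3 in the autotetraploid. Its fall of −2.79 ± 0.68 had a limma adjusted p of 0.015, and the call was lost without diploid replicate 1 (log2 fold change −2.03). Of the members with the smallest differences in T1, BRA09G0031797, at 18.5 to 19.1 TPM in the monoploid, fell by 1.20 on the log2 scale in the diploid (limma adjusted p = 0.000817), and BRA09G0033879, at 2.59 to 3.28 TPM in the monoploid, rose to 19.4 and 16.6 in the diploid (limma adjusted p = 6.58e-05).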

How the data were processed

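Leaf RNA libraries were sequenced by the authors, who used fastp for trimming, HISAT2 for alignment and StringTie for gene abundance (versions 0.21.0, 2.2.1 and 1.3.5 in the submitters' processing notes; the study's methods name another HISAT2 version). The genome build and annotation are not given in the sources used here. The deposited tables list TPM, FPKM and coverage for 46479 gene models per library. TPM was used for all results, and the ratio of the deposited coverage to FPKM gave the aligned bases of a library. Neither raw counts nor read depth per gene were used. In 1 table, 3 further columns that name no library were not used.

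The members and gene lists were chosen with earlier results of these data known. For the T1 difference, log2 TPM without a pseudocount was taken relative to the 7 reference chromosomes. Band limits were 0.5 and 1.5 times the log2 of 1.25. Named members were the 5 largest and 5 smallest differences with a standard deviation of at most 0.15 and T1 outside the range of the comparison libraries, the 5 strongest within 0.05 of the log2 ratio of 5 to 4 copies and of 0 with a standard deviation of at most 0.1, those next to the limits of 1 and 500 TPM, and the 2 largest non-overlapping rises and falls between diploid and monoploid. Other genes were singled out after their values were seen.

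Ploidy groups were compared with limma 3.58.1 in R 4.3.3 on log2(TPM + 1), with an intensity trend, all 8 libraries and Benjamini-Hochberg adjustment over 25652 genes. Fold changes on that scale understate the change of weak genes. Both procedures were run on simulated data. For the bands, the simulated spread between libraries was smaller than the real one (median standard deviation 0.170 for members over the comparison libraries). That run therefore cannot show how the bands perform at the real spread. Alternatives covered the reference chromosomes, the comparison libraries, the pseudocount, filters, band limits, rescaling, a replicate block and leaving out each library. The 0 of 46479 identifiers that matched RefSeq left genes without names, so leaf markers and sequences were not checked. Python 3.11.15, pandas 2.3.3, numpy 2.4.6, scipy 1.17.1 and matplotlib 3.10.9 were used.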

Additional observations from a re-analysis of the deposited data

How the results depend on the processing

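The displacement of A09 in T1 kept its direction under every alternative run. Its median of 0.322 became 0.270 against all 10 chromosomes, 0.313 against the diploid libraries only, 0.296 on log2(TPM + 1), 0.329 at a mean TPM of at least 20 and 0.313 for members with a standard deviation of at most 0.1, and it was 0.317 to 0.323 when a comparison library was left out. The share near the ratio (54.7%) was 49.9% against T2 and T3 only, 52.1% against the diploid only, 58.7% on log2(TPM + 1), 48.9% with a limit of 0.1 TPM, 58.2% and 60.8% at mean TPM of at least 5 and 20, 68.9% for steady members, 72.2% with a wider band, and 52.5% to 54.2% without single libraries. The compensated share (23.6%) was 30.1% against all chromosomes, 25.8% against T2 and T3, 25.2% on log2(TPM + 1), 26.9% with a limit of 0.1, 22.0% and 20.9% at mean TPM of at least 5 and 20, 18.3% for steady members, 15.2% with the wider band, and 23.1% to 24.4% without single libraries. The share beyond the ratio (21.7%) was 15.4% against all chromosomes, 24.3% against T2 and T3, 23.2% against the diploid, 16.1% on log2(TPM + 1), 24.2% with a limit of 0.1, 19.8% and 18.2% at mean TPM of at least 5 and 20, 12.8% for steady members, 12.7% with the wider band, and 21.9% to 23.1% without single libraries. The interquartile range (0.287) was 0.325 against T2 and T3, 0.306 against the diploid, 0.264 on log2(TPM + 1), 0.332 with a limit of 0.1, 0.263 and 0.249 at mean TPM of at least 5 and 20, 0.21 for steady members, and 0.284 to 0.303 without single libraries. The reference of all 10 chromosomes takes in A09 itself and A02, both raised in T1, and log2(TPM + 1) understates the change of weak genes. For the other settings, except where fewer or steadier genes or other limits define them, the cause was not tested. Leaving out the gene-poor members, an alternative added after the data were seen, gave a median of 0.324.

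Members called by limma numbered 130 to 266 in the diploid against the monoploid when a library was left out (lowest without diploid replicate 1) and 178 to 310 under the other settings. In the autotetraploid against the monoploid these ranges were 256 to 343 and 248 to 358. In the autotetraploid against the diploid a single call appeared, without diploid replicate 1, where the lone diploid library was assumed to vary like the other groups. Libraries with the same replicate number did not deviate together in every pair. Correlations were 0.217, 0.181 and 0.082 between monoploid and autotetraploid, where pairs with different numbers had −0.188 to −0.015. They were −0.042 and −0.084 between diploid and monoploid, and 0.031 and −0.224 between diploid and autotetraploid. With 2 diploid libraries, the values of D2 mirror those of D1 and are not separate evidence. The labels name no pairing, and the numbers were not taken to pair the libraries. With the replicate number as a block, 194, 285 and 0 members were called in the 3 comparisons. Of 248 values recomputed for 24 named members, 237 kept their call or moved by less than the standard deviation of the gene over the comparison libraries, 9 moved by more, and 2, both for BRA09G0036168, lost the call. Read depth per gene is unknown, so weak genes carry an error that cannot be given.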
